A study of Mus musculus with 16 samples.

Results

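The fraction of olfactory mucosa cells that carried the S100a5-tauGFP reporter (GFP+) was compared with the fraction that did not (GFP-) in mice that breathed only filtered air. The comparison took 8 of the 16 Clariom S arrays of the series, the 4 GFP+ and the 4 GFP- arrays labelled as vehicle, and 22206 gene probesets. The genes described are those outside the odorant receptor family, in the neuronal, progenitor and non-neuronal programs of the tissue. All 24 mice of the study were S100a5-tauGFP mice of both sexes, 7 to 12 weeks old, and they spent 40 h singly in chambers flushed with clean air at 3.1 L/min. During the final 14 h, which began at 26 h, the mice of these groups were given 10 s pulses of filtered air every 20 min, and the others were given an odorant in the same rhythm. An array measured the RNA of the sorted cells of 3 pooled mice, of which 50 to 100 ng was labelled. The mice thus made 8 pools for 16 arrays, so the GFP+ and GFP- arrays that share a number are 2 fractions of a single pool and were compared within it. Fluorescence is the only sorting criterion that the labels name, so GFP- cells are every cell without enough reporter signal, neuron or not.

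Olfactory sensory neurons detect odorants with receptors on their cilia, which act through a G protein, adenylyl cyclase, a cyclic nucleotide-gated channel and a calcium-activated chloride channel. The neurons are replaced throughout life from basal stem cells, through dividing progenitors and immature neurons, and they lie among sustentacular cells, microvillar cells and glands, above a lamina propria with vessels and immune cells. S100a5 encodes a small calcium-binding protein of mature olfactory neurons, and its expression depends on the activity of the neuron.

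The values are log2 signals as deposited. Medians of the GFP+ arrays were 6.29 to 6.379 and those of the GFP- arrays 6.669 to 6.756, close to the background level of 6.57 to 6.74. That level is the 95th percentile of 23 antigenomic control probesets on each array, and 47.81% to 50.63% of gene probesets exceeded it. A gene with no array of a group above this level is called at background in that group. The median standard deviation (SD) over 4 arrays was 0.23 in GFP+ and 0.25 in GFP- cells. The 95% interval of a difference reached 0.39 to each side in the median gene. The arrays are bulk samples, so fewer cells of a type and less RNA per cell cannot be told apart. Labels place the 4 pools of a group in separate mice, and each p-value measures the spread between these pools alone.

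Both fractions were rich in mature neuron RNA. Omp, the olfactory marker protein of mature olfactory sensory neurons, was at 18.66, 18.69, 18.67 and 18.67 in GFP+ pools 1 to 4 and at 18.68, 18.58, 18.55 and 18.69 in GFP- pools. The groups overlapped, and the difference was 0.05 (95% interval -0.26 to 0.36). Omp lay near the top of the scale, where the highest gene probeset of an array was at 19.34 to 19.44. S100a5 itself, the gene by which the cells were sorted, was at 16, 16.06, 15.61 and 16.22 in GFP+ and at 15.23, 15.09, 14.94 and 14.90 in GFP- cells. Every GFP+ pool was above every GFP- pool, and S100a5 RNA was well above background in GFP- cells.

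In the whole table limma with Benjamini-Hochberg adjustment called 3919 of 22206 gene probesets (17.6%) at an adjusted p under 0.05, of which 1682 (7.57%) were higher and 2237 (10.1%) lower in GFP+ cells. The counts of list members given below are to be read beside 7.57% higher and 10.1% lower. An unadjusted p under 0.05 was reached by 7075 of all gene probesets. Outside the chemosensory receptor families 20777 probesets were tested, with 1276 higher (6.14%) and 1937 lower (9.32%). The falls were larger than the rises. By the fitted difference, of the calls outside these families 149 rises and 1311 falls exceeded 2-fold, 10 and 582 exceeded 4-fold, and 2 and 140 exceeded 16-fold. These counts take in calls at background in 1 or both groups, where the fitted difference is no measure of the fold. The median difference over all gene probesets was 0.08. The split between rises and falls rests on the scaling: quantile normalization gave 2589 higher and 2073 lower, and subtracting the array medians shifted all differences by 0.36, to a median of 0.45, and gave 10247 higher and 1734 lower. Leaving out 1 pool left 806, 800, 1042 and 1051 higher calls (without pool 1, 2, 3 or 4) and 1693 to 1969 lower ones. Of the 3919 calls, 902 were at background in both groups (290 higher, 612 lower), and no fold is given for those.

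**Figure D1:**
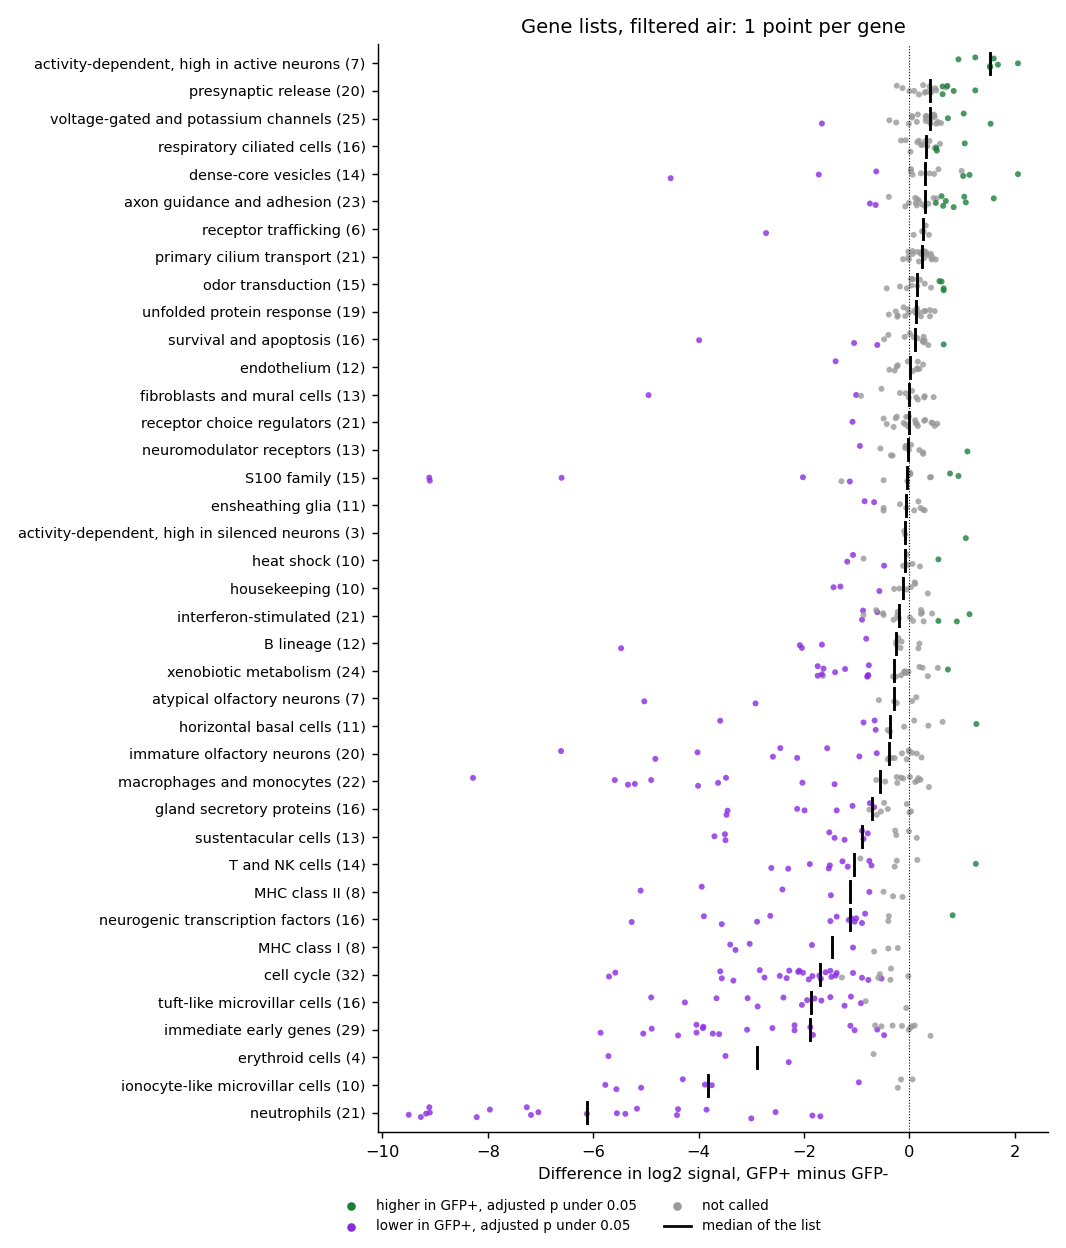
Differences between GFP+ and GFP- cells of filtered-air mice for the genes of 39 lists, 1 point per gene, on the log2 scale with positive values higher in GFP+ cells. Colours mark calls at an adjusted p under 0.05, the bar is the list's median and the number in brackets counts the genes measured. All 7 activity-dependent genes lie right of 0 and all 21 neutrophil genes lie left of it.

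The largest rise of a named gene outside the receptor families was Fxyd2, which encodes the gamma subunit that modulates the sodium-potassium pump. Fxyd2 was at 10.98, 11.75, 11.26 and 12.28 in GFP+ pools and at 8.38, 7.60, 7.59 and 8.38 in GFP- pools. No values overlapped, and the difference of 3.58 (SE 0.25) was an 11.9-fold rise (limma, Benjamini-Hochberg adjusted p = 0.00012). Kcng1, a modifier subunit of voltage-gated potassium channels, was at 9.23, 10.49, 9.53 and 10.34 against 7.26, 8.72, 7.47 and 7.86. Pool 2 was the highest in both fractions, and each pool rose by itself, for a 4.21-fold rise in all (adjusted p = 0.00017 by limma). Slc7a8, a transporter of neutral amino acids, rose 3.93-fold, Rfx4, a transcription factor of the family that controls cilium genes, rose 3.69-fold, and Lgals3bp, a secreted galectin-binding glycoprotein, rose 3.57-fold.

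Caly, a membrane protein of clathrin-mediated endocytosis, was at 8.91 to 9.25 in GFP+ and 7.20 to 7.68 in GFP- cells, a 3.01-fold rise. Pcdh8, an activity-regulated protocadherin, was at 11.61 to 12.27 against 10.09 to 10.72, a 2.98-fold rise. Avp, the vasopressin precursor, was at 8.60, 9.09, 8.19 and 9.36 in GFP+ cells and at 6.38, 6.40, 7.00 and 6.88 in GFP- cells, of which 2 of 4 arrays exceeded background. The rise in Avp was at least 3.96-fold. Rarb, a retinoic acid receptor, rose 2.93-fold although its groups overlapped: its pools were at 11.58, 11.10, 10.93 and 9.96 against 9.41, 9.54, 10.18 and 8.23, and pool 4 was the lowest in both fractions. Galnt15, a glycosyltransferase, was above background only in GFP+ cells and rose at least 2.03-fold. Cemip, which takes part in breaking down hyaluronan, rose at least 1.04-fold and exceeded background on 3 of 4 GFP+ arrays. Usp29, a deubiquitinase gene, exceeded background on 1 GFP+ array and no GFP- array.

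Genes listed as high in active olfactory neurons were all higher in GFP+ cells, 7 of 7, with a median difference of 1.53 against 0.08 over all gene probesets. The list holds S100a5, by which the cells were sorted, and such lists were drawn up in neurons compared by activity, so the direction is not independent evidence. Ptprn, a membrane protein of dense-core vesicles, was at 9.95, 9.58, 9.98 and 9.85 in GFP+ pools and at 8.29, 7.85, 7.76 and 7.21 in GFP- pools. Lrrc3b, a leucine-rich repeat membrane protein, was at 13.45, 14.10, 13.26 and 14.23 against 11.75, 12.51, 11.69 and 12.36. Pools 2 and 4 were the higher ones of Lrrc3b in both fractions, and the rise within the 4 pools was 3.21-fold. Pcdh10, an activity-dependent protocadherin of olfactory axons, was at 9.87, 8.81, 9.50 and 9.56 against 8.74, 7.63, 7.84 and 7.41, a 2.89-fold rise. Kirrel2, an adhesion molecule of olfactory axons, Pcp4l1, a small calmodulin-regulating protein, and Cidea, a lipid droplet protein, rose as well. The groups did not overlap for any of the 7. Over the whole table they did not overlap for 5091 of 22206 gene probesets (22.9%). The count stayed at 7 with any 1 pool left out.

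Of the 3 genes listed as high in silenced neurons, 1 was called, in the direction opposite to the list's name. Epha5, an ephrin receptor of axons, was at 11.46, 11.44, 11.84 and 11.29 in GFP+ and at 10.34, 10.32, 10.81 and 10.27 in GFP- cells. The values did not overlap, and the rise was 2.1-fold (limma, Benjamini-Hochberg adjusted p = 0.0014). Kirrel3, an adhesion gene related to Kirrel2, was at 13.38 to 14.07 against 13.66 to 13.93, and H2bc21, a histone H2B gene, was at 15.63 to 15.84 against 15.74 to 15.92. Both overlapped between groups, with differences of -0.08 (SE 0.14) and -0.10 (SE 0.13).

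**Figure D2:**
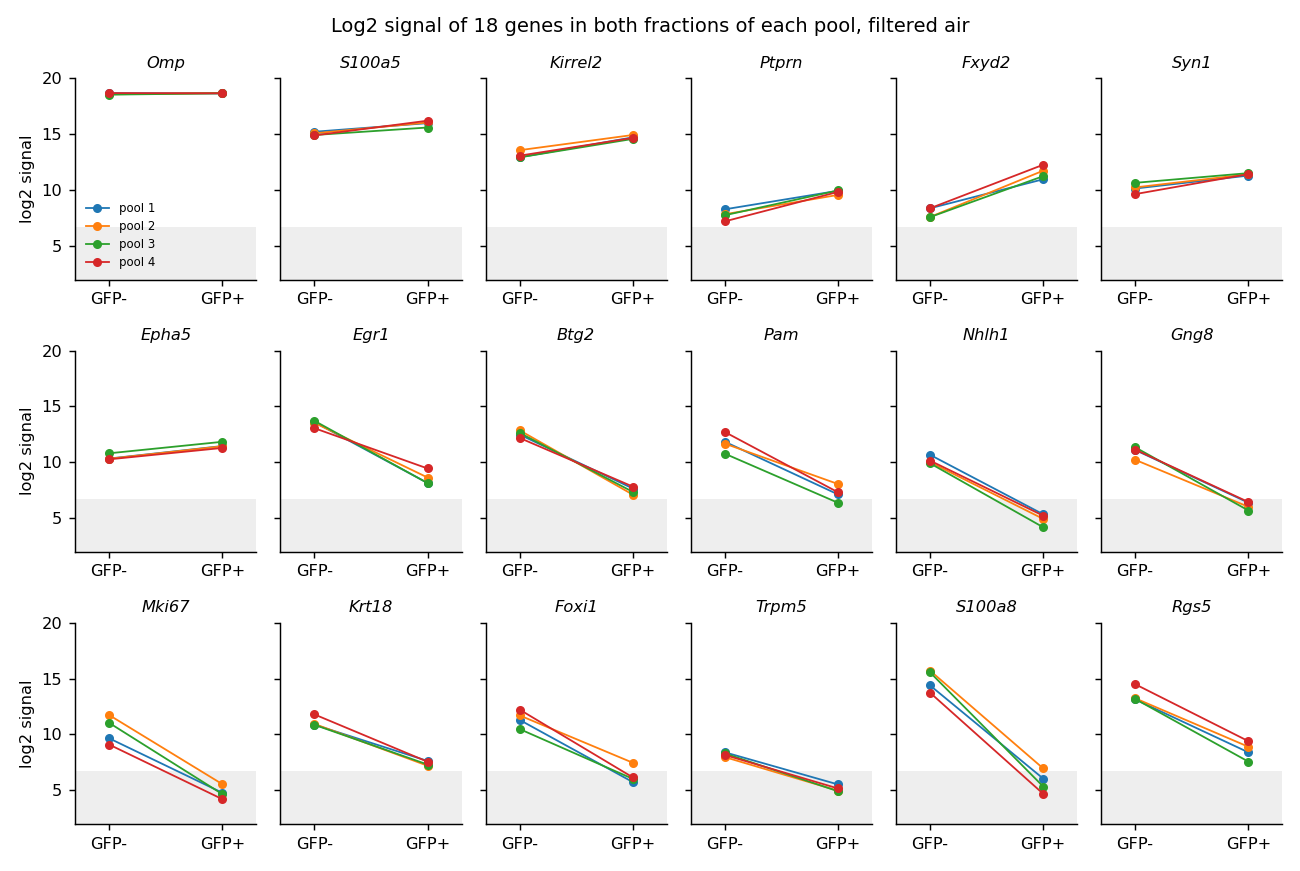
Log2 signal of 18 genes in the GFP- and GFP+ fractions of each of the 4 filtered-air pools, with a line joining the fractions of a pool. The grey band marks values below the highest background level of the 8 arrays. The lines of Fxyd2, Ptprn and Syn1 rise in every pool and those of Egr1, Nhlh1, Mki67 and S100a8 fall in every pool, while Omp stays near 18.7.

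Of 15 odor transduction genes 4 were higher and 0 lower (median difference 0.15), and with array medians subtracted 11 were higher (median 0.52). Ano2, the calcium-activated chloride channel of the cilia, was at 17.17, 16.96, 17.26 and 17.10 in GFP+ pools and at 16.41, 16.45, 16.66 and 16.68 in GFP- pools, a 1.49-fold rise. Pde4a, a phosphodiesterase that breaks down cyclic AMP, was at 15.10 to 15.53 against 14.53 to 14.75, a 1.57-fold rise, and Pde1c, the calcium-dependent phosphodiesterase of the cilia, and Slc24a4, the exchanger that removes calcium, rose by similar factors of 1.57 and 1.52. Gnal, Adcy3 and Cnga2 were not called. Gnal, the G protein alpha subunit, was at 18.26 to 18.37 against 18.02 to 18.25 (difference 0.20, SE 0.13). Adcy3, the adenylyl cyclase, was at 17.36 to 17.41 against 16.83 to 17.10 (difference 0.41, SE 0.13), without overlap but with an adjusted p of 0.083 by limma. Cnga2, the channel subunit, was at 16.74 to 17.02 against 16.85 to 16.98, with overlap. With 1 pool left out, between 0 and 2 of the 15 were called (2 without pool 1, 0 without pool 2, 1 without pool 3, 2 without pool 4).

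Of 6 receptor trafficking genes 0 were higher and 1 lower, and with array medians subtracted 5 were higher and 1 lower. Reep5, an endoplasmic reticulum-shaping protein, was at 5.03 to 5.53 in GFP+ cells, at background, and at 7.90, 7.76, 8.27 and 8.10 in GFP- cells, a fall of at least 2.55-fold. Rtp1, the chaperone that brings odorant receptors to the membrane, was at 17.06 to 17.14 against 16.91 to 17.09. Of 21 regulators of receptor choice 0 were higher and 1 lower, the lamin B receptor Lbr, which tethers heterochromatin to the nuclear envelope and whose low level goes with the inverted chromatin layout of olfactory neurons. Lbr was at 9.96, 10.19, 10.29 and 9.95 in GFP+ and at 10.75, 11.77, 11.37 and 10.82 in GFP- cells, a 2.12-fold fall (limma, Benjamini-Hochberg adjusted p = 0.0052). GFP- pools 2 and 3 were above pools 1 and 4 for Lbr, as for the mean of the neutrophil genes. The part of other cell types in the fall of Lbr was not tested. Lhx2, a homeodomain factor needed for receptor expression, was at 16.12 to 16.28 against 16.09 to 16.34, and Kdm1a, a histone demethylase of the same process, was at 10.61 to 10.83 against 10.65 to 11.17. Emx2 (difference 0.48, adjusted p = 0.056 by limma) and Ebf1 (0.44, adjusted p = 0.057), transcription factors of olfactory neurons, did not overlap between groups but missed the threshold. The list's median difference was -0.01. With array medians subtracted it was 0.35, with 9 members higher and 1 lower.

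Axon guidance and adhesion genes leaned to GFP+ cells, with 8 of 23 higher and 2 lower and a median difference of 0.29. The 8 include Kirrel2 and Epha5, which were already counted in the activity-dependent lists. With array medians subtracted 17 were higher and 0 lower. Plxna3, a semaphorin co-receptor, was at 11.82, 11.27, 11.58 and 11.80 in GFP+ pools and at 10.75, 10.49, 10.77 and 10.28 in GFP- pools, a 2.06-fold rise. Epha7, an ephrin receptor, was at 12.52, 12.70, 12.35 and 12.50 against 11.89, 11.62, 11.61 and 11.60, a 1.79-fold rise. Nrp2, a semaphorin receptor that sorts olfactory axons, rose 1.61-fold, Slit1, a repellent ligand, 1.56-fold and Robo1, its receptor, 1.52-fold, and each of these 3 calls was lost without some single pool (highest adjusted p 0.08, 0.1 and 0.11). Sema3a, a repellent semaphorin, fell 1.56-fold, from 7.32, 7.90, 7.72 and 8.57 in GFP- to 6.97, 7.22, 6.77 and 8.0 in GFP+ cells. The groups overlapped for Sema3a because pool 4 was high in both fractions, and its call was lost in 6 of 10 alternatives, with an adjusted p of up to 0.19. Robo2, the other Slit receptor measured, was at 10.94 to 11.35 against 11.48 to 11.71 and was not called (difference -0.39, SE 0.15). Chl1, called higher, and Nrcam, called lower, were at background in both groups. With 1 pool left out, 4 to 6 members were higher and 0 or 1 lower (5 without pool 1, 4 without pool 2, 5 without pool 3, 6 without pool 4).

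Presynaptic genes rose in 5 of 20 cases and fell in 0, with a median difference of 0.40. The count was 16 with array medians subtracted and 11 with the intensity trend and robust prior. Syn1, a synapsin that tethers synaptic vesicles, was at 11.31, 11.43, 11.53 and 11.44 in GFP+ and at 10.15, 10.25, 10.66 and 9.65 in GFP- cells, a 2.38-fold rise (limma, Benjamini-Hochberg adjusted p = 0.0032). Syn2, the second synapsin, was at 14.10 to 14.33 against 13.21 to 13.46, a 1.79-fold rise. Sv2b and Sv2a, vesicle glycoproteins, rose 1.65-fold and 1.55-fold, and Cplx2, which clamps and promotes vesicle fusion, rose 1.55-fold. Slc17a6, the vesicular glutamate transporter of these neurons, was at 15.42, 15.49, 15.44 and 15.35 against 14.94, 14.93, 14.98 and 15.27. GFP- pool 4 stood above the other GFP- pools for Slc17a6, and the difference of 0.40 (SE 0.15) had an adjusted p of 0.11. With 1 pool left out, 2 of the 20 were called without pool 1 and 3 without pool 2, 3 or 4. The calls in Sv2a, Sv2b and Cplx2 were lost without some single pools, with adjusted p up to 0.13, 0.067 and 0.12.

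Dense-core vesicle genes moved both ways, 3 of 14 higher and 3 lower, and 10 were higher and 2 lower with array medians subtracted. Ptprn, already counted with the activity-dependent genes, was among the 3 higher. Chgb, a granin that fills these vesicles, was at 10.84, 11.31, 11.36 and 11.43 in GFP+ pools and at 10.22, 10.09, 10.12 and 10.42 in GFP- pools, a 2.03-fold rise (limma, Benjamini-Hochberg adjusted p = 0.0046). Pam, the enzyme that amidates neuropeptides, was at 7.13, 8.06, 6.38 and 7.32 in GFP+ and at 11.85, 11.68, 10.78 and 12.72 in GFP- cells. Pam thus fell 23.2-fold, with pool 3 the lowest in both fractions and no overlap. Cadps2, a priming factor for these vesicles, fell at least 2.37-fold, and Scg2, another granin, fell 1.55-fold, a call lost without pool 1, 2 or 3 (adjusted p up to 0.15). Pcsk1n, an inhibitor of a prohormone convertase, rose at least 1.3-fold and exceeded background on 3 of 4 GFP+ arrays. Chga, the granin most used as a marker, was at 17.16 to 17.35 against 17.12 to 17.28, with overlap.

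Of 25 voltage-gated and potassium channel genes 3 were higher and 1 lower (median difference 0.39), beside 7.57% and 10.1% of all gene probesets. The higher count was 19 with array medians subtracted, 10 with the intensity trend and robust prior and 8 with all 16 arrays in 1 fit. Kcnmb3, an auxiliary subunit of calcium-activated potassium channels, was at 14.44, 14.99, 14.44 and 14.74 in GFP+ and at 12.86, 13.50, 13.33 and 12.77 in GFP- cells, a 2.9-fold rise (limma, Benjamini-Hochberg adjusted p = 0.00097). Hcn4, a pacemaker channel, was at 10.99 to 11.27 against 10.23 to 10.48, a 1.66-fold rise. Kcna1, a delayed rectifier channel gene, passed the test at background in both groups. Kcnk1, a leak potassium channel gene, fell, with a difference of -1.66 (SE 0.22). Its GFP+ mean of 6.66 was level with background, which 2 of 4 GFP+ arrays exceeded, so no fold is given. Of 13 neuromodulator receptor genes 1 was higher and 1 lower, near the shares over all gene probesets. The lower one was P2ry2, a nucleotide receptor at background in both groups. With array medians subtracted 4 were higher and 0 lower. Cnr1, the cannabinoid receptor, rose 2.14-fold, from 6.74, 7.19, 6.60 and 8.18 to 8.48, 8.06, 8.12 and 8.43. GFP- pool 4 overlapped the GFP+ range for Cnr1, and the call was lost without pool 1, 2 or 3 (adjusted p up to 0.097). Gabbr1, a subunit of the GABA-B receptor on olfactory nerve endings, and Drd2, the dopamine receptor there, were not called, with differences of 0.26 (SE 0.13) and 0.19 (SE 0.13).

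None of 21 genes of transport in the primary cilium was called by limma, and their differences ran from -0.12 for Ift20 to 0.50 for Tulp3 (median 0.23). With array medians subtracted 17 of the 21 were called higher (median 0.59), and with the intensity trend and robust prior 3 were. None of 19 genes of the unfolded protein response was called, from -0.39 for Xbp1 to 0.48 for Trib3 (median 0.12), whereas 11 were called higher with array medians subtracted (median 0.49). Ddit3, a stress-induced transcription factor tied to neuronal maturation, was at 12.18 to 12.50 against 12.00 to 12.77. Among 16 survival and apoptosis genes 1 was higher and 3 lower, and 9 were higher and 2 lower with array medians subtracted. Bcl2l2, an anti-apoptotic protein, was at 11.07, 10.97, 10.67 and 11.17 in GFP+ and at 10.62, 10.08, 9.96 and 10.61 in GFP- cells, a 1.57-fold rise. Mcl1, an anti-apoptotic protein with a short life, fell 2.07-fold. Casp8, the initiator caspase of death receptors, fell 15.9-fold, from 9.95, 11.52, 12.04 and 10.69 to 6.87, 7.54, 5.99 and 7.81, of which 3 of 4 exceeded background. GFP- pools 2 and 3 were above pools 1 and 4 for Casp8, as for the mean of the neutrophil genes. The part of other cell types in the fall of Casp8 was not tested. The calls in Bcl2l2 and Mcl1 were lost without pool 2 or pool 3 (adjusted p up to 0.095 and 0.083). Of 10 housekeeping genes 0 were higher and 3 lower (3 and 2 with array medians subtracted), among them the ribosomal protein gene Rplp0 (2.72-fold), and Gapdh and Actb had differences of 0.03 and -0.29.

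Immediate early genes, which cells switch on within minutes of a stimulus, were lower in GFP+ cells in 20 of 29 cases and higher in 0 (median difference -1.88). The largest fall of the list was in Egr2, a zinc finger factor, at 6.33, 6.79, 6.95 and 6.89 in GFP+ and 12.65, 12.58, 12.54 and 12.64 in GFP- cells. Fos, a subunit of the AP-1 factor, was at 11.16, 11.61, 10.85 and 12.03 against 15.18, 15.71, 15.92 and 15.01, a 16.5-fold fall. Fosb, its relative, was at 7.77, 8.31, 8.27 and 9.28 against 12.81, 12.59, 12.84 and 12.93, a 20.9-fold fall. GFP+ pool 4 was the highest GFP+ pool for both, and no GFP+ value of Egr2, Fos or Fosb reached a GFP- value. Egr1 and Btg2, an antiproliferative gene, fell 29.6-fold and 33.2-fold. Zfp36, which destabilizes short-lived mRNAs, fell 16.5-fold, Junb, an AP-1 subunit, 15.1-fold and Ier3, a survival regulator, 13.2-fold, with 2 of 4 GFP+ arrays of Ier3 above background. Nr4a3 and Nr4a2, orphan nuclear receptors, fell at least 2.61-fold and at least 5.28-fold.

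Jund, an AP-1 subunit whose level changes little on stimulation, was at 14.42 to 15.09 against 14.32 to 14.85 (difference 0.10). Jun, 1 of the 20 called, fell 1.4-fold with overlapping groups, and its call was lost without the replicate block, with array medians subtracted and without any single pool (adjusted p up to 0.49). Arc and Npas4, activity genes of central neurons, were at background on all 8 arrays. The count of 20 was 17 to 18 with any 1 pool left out and 17 lower with 2 higher after subtraction of the array medians. Monocytes, neutrophils and other cells also express many immediate early genes, and the 21 neutrophil genes had a summed log2 signal of 17.57 to 19.65 in the GFP- and of 9.85 to 11.25 in the GFP+ arrays. The part of such cells in these falls was not tested.

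Promoter sequence was set beside these groups because motifs of activity-regulated and olfactory transcription factors can be read in it. The windows are RefSeq windows of 300 bases, from 250 before to 50 after the start site, in build GRCm38.p6, and 144 of the 193 named genes had one. Searched on both strands were TGACGTCA, the cAMP response element, which reads the same on both strands, GCGGGGGCG, bound by Egr factors, and CCCNNGGGA, an EBF-type site. Matches of different motifs may share bases. The 4 genes shown here hold a match in the 250 bases upstream, and positions give the first base of the match relative to the start site. Chgb and Syn1 rose in GFP+ cells, and Btg2 and Nhlh1, a transcription factor of newly formed neurons described with the progenitor genes, fell. Capitals mark the matches.
Chgb, chr2:132781392-132781641, plus strand: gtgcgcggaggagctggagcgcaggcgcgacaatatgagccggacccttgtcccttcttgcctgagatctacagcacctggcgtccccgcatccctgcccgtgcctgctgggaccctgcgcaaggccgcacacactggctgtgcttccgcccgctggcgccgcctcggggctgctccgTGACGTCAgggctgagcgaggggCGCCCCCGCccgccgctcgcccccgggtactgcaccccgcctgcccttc
Syn1, chrX:20920919-20921168, minus strand: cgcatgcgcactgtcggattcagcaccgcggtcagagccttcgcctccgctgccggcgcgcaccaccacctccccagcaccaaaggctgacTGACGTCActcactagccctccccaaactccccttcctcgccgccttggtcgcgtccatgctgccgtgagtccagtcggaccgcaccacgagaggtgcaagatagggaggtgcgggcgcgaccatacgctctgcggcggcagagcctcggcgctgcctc
Btg2, chr1:134079156-134079405, minus strand: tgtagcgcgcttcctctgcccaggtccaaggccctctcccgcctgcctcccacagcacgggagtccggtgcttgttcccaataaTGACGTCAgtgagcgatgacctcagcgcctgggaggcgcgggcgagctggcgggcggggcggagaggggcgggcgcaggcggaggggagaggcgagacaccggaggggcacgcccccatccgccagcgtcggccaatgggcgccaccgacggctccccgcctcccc
Nhlh1, chr1:172057597-172057846, minus strand: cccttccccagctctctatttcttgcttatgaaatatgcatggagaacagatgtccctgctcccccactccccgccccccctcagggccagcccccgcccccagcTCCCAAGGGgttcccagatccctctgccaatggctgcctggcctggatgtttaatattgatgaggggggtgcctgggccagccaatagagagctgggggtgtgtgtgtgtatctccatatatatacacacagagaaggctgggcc
Chgb held the cAMP response element at -72 and an Egr-type match, on the other strand, at -49. Syn1 and Btg2 held the cAMP response element at -159 and -166, although they moved in opposite directions. Nhlh1 held an EBF-type match at -145. Over all 32851 windows the shares with a match were 1.79% for the cAMP response element, 2.91% for the Egr-type and 6.56% for the EBF-type motif. Among genes above background outside the receptor families, the cAMP response element stood in 3.52% of 967 windows of genes called higher, in 2.01% of 1244 of genes called lower and in 3.39% of 8404 of genes not called. The Egr-type shares were 5.38%, 5.31% and 5.41%, and the EBF-type shares 9.1%, 7.88% and 7.63%, in the same order. A match describes the letters of the window and says nothing of binding.

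Transcription factors and receptors of neurogenesis were lower in GFP+ cells in 13 of 16 cases and higher in 1 (median difference -1.13). Nhlh1 was at 5.35, 4.94, 4.19 and 5.23 in GFP+ cells, at background, and at 10.68, 10.02, 9.92 and 10.16 in GFP- cells, a fall of at least 11.7-fold (limma, Benjamini-Hochberg adjusted p = 3.9e-06). Nhlh2, its relative, fell at least 6.43-fold, and Cxcr4, a chemokine receptor of dividing progenitors that leukocytes share, fell at least 10.9-fold. Both exceeded background on 1 of 4 GFP+ arrays. Sox11, a factor of newborn neurons, was at 7.30, 7.59, 7.85 and 7.92 against 11.68, 11, 10.64 and 11.56, an 11.8-fold fall. Sox2, a factor of basal and sustentacular cells, fell at least 1.41-fold, Kit, a receptor of progenitors, at least 2.01-fold, and Hes6, a promoter of neuronal differentiation, at least 1.13-fold, all at background in GFP+ cells. Neurog1, a factor that commits progenitors to the neuronal fate, was at 3.75 to 4.25 against 4.72 to 5.40 and Neurod4, the 1 member called higher, at 3.50 to 4.53 against 2.85 to 3.17. Both lay at background in both groups.

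Cell cycle genes were lower in 26 of 32 cases and higher in 0 (median difference -1.70). In GFP+ cells 19 were at background with GFP- arrays above it, while another 6 were at background on all 8 arrays. Of the 26 calls 5 lay at background in both groups, among them Cdk1 and Birc5. Mki67, the proliferation antigen, was at 4.78, 5.55, 4.66 and 4.21 in GFP+ cells and at 9.66, 11.74, 11.04 and 9.10 in GFP- cells. GFP- pools 2 and 3 were higher than pools 1 and 4, and the fall was at least 13.3-fold. Rrm2, a subunit of the enzyme that makes deoxyribonucleotides, was at 5.31 to 5.78 against 8.04, 10.45, 9.85 and 8.01, a fall of at least 5.42-fold, with the same pools high. Ube2c, which ubiquitinates mitotic cyclins, was at 3.22 to 3.87 against 8.19, 11.28, 9.92 and 7.93, a fall of at least 6.4-fold. Top2a, a topoisomerase of dividing cells, fell at least 1.21-fold, and its call was lost without pool 1 or pool 2 and with quantile normalization (adjusted p up to 0.062). With 1 pool left out, 20 to 25 of the 32 were called. Neutrophil precursors and erythroid cells divide as well, their marker levels in GFP- cells were high in the same pools, and their part in these falls was not tested.

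Genes of immature olfactory neurons split into those that fell and those that did not. Of 20, 9 were lower and 0 higher (median difference -0.39, and -0.03 with array medians subtracted, where 3 were higher and 8 lower). Gap43, the growth cone protein that marks immature neurons, was at 8.12, 8.91, 7.84 and 8.59 in GFP+ cells and at 11.02, 10.76, 10.72 and 11.35 in GFP- cells, a 6.04-fold fall without overlap. Gng8, a G protein gamma subunit of immature olfactory neurons, was at 5.69 to 6.45 against 11.11, 10.23, 11.35 and 11.14, a fall of at least 19.8-fold. Dpysl3 and Stmn1, regulators of the growing cytoskeleton, fell 16.2-fold and 5.48-fold, and Tmsb10, which binds actin monomers, fell 4.36-fold. Cd24a, a surface glycoprotein of immature neurons and of many blood and epithelial cells, was at 4.72 to 6.21 against 10.88, 12.63, 12.22 and 11.40, a fall of at least 35-fold. Dcx, doublecortin, was at 13.15, 13.32, 13.49 and 13.25 against 13.23, 12.73, 12.89 and 13.46. Tubb3, the neuronal tubulin, was at 14.81 to 15.10 against 14.82 to 15.12. Both overlapped, with differences of 0.23 (SE 0.19) and -0.01 (SE 0.15).

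Genes of horizontal basal cells, the reserve stem cells, were mostly at background. Of the 11 genes listed, 8 were at background on all 8 arrays, including the defining keratin Krt5 and the transcription factor Trp63. Cd44, an adhesion receptor that immune cells share, was at 6.94, 4.65, 7.00 and 7.04 in GFP+ and at 9.65, 10.17, 11.17 and 9.0 in GFP- cells, a fall of at least 8.49-fold. GFP+ pool 2 was far below the other GFP+ pools for Cd44. Cdh3, placental cadherin, was the 1 member called higher, at 7.10, 6.41, 7.13 and 7.27 against 5.39 to 6.23, a rise of at least 1.23-fold. Itga6, an integrin, fell with 2 of 4 GFP- arrays above background and lost its call with quantile normalization, with array medians subtracted and without pool 3 or pool 4 (adjusted p up to 0.099), and Krt14 and Icam1 passed at background.

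Sustentacular cell genes were lower in 9 of 13 cases and higher in 0 (median difference -0.90), but the fall differed in size. Sult1c1, a sulfotransferase, was at 8.96, 8.46, 8.25 and 9.30 in GFP+ and at 12.34, 12.18, 11.61 and 12.80 in GFP- cells, an 11.3-fold fall. Krt18, a keratin of simple epithelia, was at 7.63, 7.20, 7.31 and 7.56 against 10.88, 10.95, 10.87 and 11.80, and its partner Krt8 at 5.05 to 5.35, at background, against 8.51, 8.89, 8.06 and 9.31. Krt8 fell at least 4.12-fold. Cyp2g1, the cytochrome most typical of olfactory epithelium, was at 14.78, 14.91, 14.61 and 14.73 in GFP+ cells and at 15.74, 16.01, 15.92 and 16.27 in GFP- cells. Cyp2a5, a cytochrome of the same cells, was at 14.13, 13.93, 13.37 and 13.92 against 15.11, 15.29, 15.16 and 15.87, a 2.87-fold fall. The RNA of both cytochromes was thus far above background in GFP+ cells, and GFP- pool 4 was the highest pool for Sult1c1, Krt18, Krt8, Cyp2g1 and Cyp2a5. Summed over the list, the log2 signal ranged from 15.42 to 15.84 over the GFP+ pools and from 16.84 to 17.36 over the GFP- pools. Ermn passed at an adjusted p of 0.039 by limma and was lost in 5 of 10 alternatives (up to 0.14).

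Gland and detoxification genes were lower where they were called, with 1 exception. Of 16 genes of gland secretion 8 were lower and 0 higher (median difference -0.71). On all 8 arrays 8 of the 16 were at background, among them Sox10, which was 1 of the 8 called lower. Sox9, the transcription factor of Bowman's gland and duct cells, was at 6.01, 6.05, 6.03 and 6.40 in GFP+ cells, at background, and at 9.45, 9.55, 9.71 and 9.59 in GFP- cells. Scgb1c1, a secretoglobin of olfactory glands, was at 9.88, 9.05, 7.32 and 9.12 against 12.35, 11.70, 12.06 and 13.12, an 11.1-fold fall. Bpifb3, of a family of secreted lipid-binding proteins, fell 4.37-fold, a call lost without pool 3 (adjusted p = 0.053), and its relative Bpifa1 fell at least 3.17-fold. Of 24 genes of xenobiotic metabolism 10 were lower and 1 higher (median difference -0.29, and 0.08 with array medians subtracted). Aldh1a1, a retinal dehydrogenase, fell at least 2.93-fold, Cyp2a4 fell 3.34-fold and Gstm1, a glutathione transferase, 2.65-fold. Cyp2s1, a cytochrome, was at 13.31, 13.48, 13.58 and 13.42 in GFP+ and at 12.32, 12.99, 12.89 and 12.68 in GFP- cells, a 1.65-fold rise that was lost without pool 1 (adjusted p = 0.067).

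Genes of both kinds of microvillar cell were lower in GFP+ cells. Of 10 ionocyte-like genes 7 were lower and 0 higher (median difference -3.82), and the summed log2 signal was 8.72 to 9.07 in GFP+ cells against 12.91 to 14.27 in GFP- cells. Foxi1, the transcription factor of ionocytes, was at 5.74, 7.47, 6.03 and 6.16 against 11.31, 11.71, 10.49 and 12.23, a fall of at least 24-fold. Only GFP+ pool 2 exceeded background for Foxi1. Cftr, the chloride channel of these cells, was at 5.55 to 6.51 against 10.35, 9.87, 9.38 and 11.59, a fall of at least 12.5-fold. Hepacam2, an adhesion protein, fell at least 38.7-fold, Stap1, an adaptor that B cells also express, at least 26.5-fold, and Atp6v0d2, a subunit of the proton pump, at least 3.71-fold.

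Of 16 tuft-like genes 14 were lower and 0 higher (median difference -1.87). Trpm5, the cation channel of taste-like cells, was at 5.53, 4.97, 4.92 and 5.17 in GFP+ cells, at background, and at 8.41, 7.98, 8.31 and 8.17 in GFP- cells. Pou2f3, the transcription factor that tuft cells require, was at 5.03 to 6.27 against 7.62, 7.89, 7.41 and 8.10, a fall of at least 2.15-fold. Rgs13, a regulator of G protein signalling, fell at least 6.1-fold. Alox5 and Alox5ap, which start leukotriene synthesis in tuft cells and also in neutrophils and macrophages, fell at least 2.04-fold and 29.9-fold. Of the 14 calls 5 lay at background in both groups, among them Chat and Gnat3.

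Of 16 genes listed for respiratory ciliated cells 3 were higher and 0 lower (median difference 0.32). The count was 1 with any 1 pool left out and 11 with array medians subtracted. Hydin, a protein of the central apparatus of motile cilia, was at 9.93, 9.34, 10.05 and 9.26 in GFP+ and at 8.76, 8.45, 8.77 and 8.41 in GFP- cells, a 2.07-fold rise (limma, Benjamini-Hochberg adjusted p = 0.0027). Rsph1 and Rsph4a, radial spoke proteins, rose 1.44-fold and 1.43-fold, and both calls were lost without any single pool (adjusted p up to 0.14 and 0.16). Of 11 ensheathing glia genes 9 were at background on all 8 arrays, including S100b and Sox10. In this list 2 genes were called lower, Erbb3 and Sox10, both at background in both groups, and 0 higher. Fabp7, a fatty acid-binding protein of these glia, was at 8.14, 8.19, 6.63 and 8.55 against 7.56, 7.70, 6.83 and 9.07. Apoe, made by glia and macrophages, was at 14.15, 14.98, 13.50 and 15.74 against 14.65, 15.27, 14.95 and 15.45. Both overlapped, with pool 3 the lowest GFP+ pool for both.

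The largest falls among the named genes were in neutrophil genes, 21 of 21 lower, with a median difference of -6.12. Retnlg, a resistin-like protein of neutrophils, was at 7.06, 6.87, 5.28 and 4.37 in GFP+ cells and at 15.43, 16.31, 15.97 and 13.85 in GFP- cells, a fall of at least 383-fold. Ngp, a granule protein of maturing neutrophils, was at 7.74, 9.56, 8.29 and 6.36 against 16.60, 17.81, 18.05 and 16.18, a 577-fold fall. S100a8, a subunit of calprotectin, fell at least 281-fold. Genes of several stages were among the 21: the primary granule genes Mpo (at least 31.5-fold), Elane (at least 19.2-fold) and Prtn3 (at least 2.21-fold), the secondary and tertiary granule genes Ltf (at least 51.5-fold), Camp (at least 20.9-fold), Mmp8 (at least 58.2-fold) and Mmp9 (at least 42.8-fold), and the receptors of mature cells Cxcr2 (at least 5.55-fold) and Csf3r (at least 5.02-fold). GFP- pools 2 and 3 were above pools 1 and 4 for Camp, at 12.64 and 12.18 against 10.30 and 9.03. In GFP+ cells 13 members were at background with GFP- arrays above it, while Ngp and Lcn2 exceeded background on 3 of 4 GFP+ arrays.

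Of 22 genes of macrophages and monocytes 10 were lower and 0 higher (median difference -0.55). Ly6c2, a surface marker of inflammatory monocytes, was at 5.10, 5.35, 4.69 and 4.09 in GFP+ and at 12.15, 14.19, 14.67 and 11.34 in GFP- cells, a fall of at least 86.6-fold. Lyz2, lysozyme, which neutrophils also make, was at 9.28, 10.02, 8.50 and 10.35 against 14.56, 15.36, 15.46 and 14.13, a 40.6-fold fall, and Ccr2, the receptor that draws monocytes into tissue, fell at least 4.61-fold. Itgam and Fcer1g, which neutrophils share, fell at least 14.9-fold and 29.9-fold. C1qa, a complement subunit made by resident macrophages, was at 6.82, 7.52, 7.51 and 8.60 in GFP+ and at 6.97, 7.55, 7.08 and 8.0 in GFP- cells. Pool 4 was the highest for C1qa in both fractions, and the groups overlapped (difference 0.21, SE 0.17). Also not called were C1qb, C1qc, Mrc1, Cd163 and Trem2, with differences of -0.23, 0.17, 0.37, 0.11 and 0.01. No test compared these members with the rest of the list.

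Lymphoid genes were mostly at background, and antigen presentation genes fell. Of 12 B lineage genes 5 were lower, with 9 at background on all 8 arrays, and 2 of the 5 calls lay at background in both groups. Jchain, the joining chain of secreted antibodies, was at 3.40 to 4.77 against 8.10, 9.55, 10.35 and 10.51, a fall of at least 7.84-fold. Of 14 T and NK cell genes 9 were lower and 1 higher, with 10 at background on all 8 arrays. Of the 9 lower calls 6 lay at background in both groups, among them Cd3g and Cd8a. Il7r, a receptor of lymphocytes, was at 4.44 to 5.70 against 6.68, 8.66, 7.84 and 7.33, a fall of at least 1.97-fold. Cd4, a T cell and macrophage co-receptor, went the other way, at 7.90, 7.92, 7.39 and 8.50 in GFP+ and 6.26, 6.53, 6.78 and 7.10 in GFP- cells, a rise of at least 2.15-fold, while Cd3e, which defines T cells, was at background in GFP+ cells. H2-Aa, an MHC class II chain, was at 5.42 to 6.52 against 11.02, 10.87, 12.07 and 11.14, a fall of at least 24.6-fold. In all 5 of 8 class II genes were lower, 2 of them at background in both groups. B2m, the light chain of MHC class I, was at 11.45, 11.27, 11.17 and 12.17 against 14.45, 15.21, 15.56 and 14.42, a 10.5-fold fall. In all 5 of 8 class I genes were lower, 1 of them at background in both groups.

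Interferon-stimulated genes moved both ways, 3 of 21 higher and 3 lower, with a median difference of -0.20 that was 0.16 after subtraction of the array medians, with 8 higher and 1 lower. Ifit1, which blocks translation of foreign RNA, was at 10.96, 11.41, 11.13 and 11.41 in GFP+ and at 9.94, 10.67, 9.95 and 9.80 in GFP- cells, a 2.2-fold rise (limma, Benjamini-Hochberg adjusted p = 0.0044). Ifih1, a sensor of viral RNA, and Mx2, an antiviral GTPase, rose 1.47-fold and at least 1.15-fold, but the first call was lost without any single pool and the second without pool 1, 2 or 4 (adjusted p up to 0.17 and 0.098). The 3 lower members, Isg15, Irf7 and Gbp2, were at background in both groups.

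Erythroid genes were lower in 3 of 4 cases. Car1, carbonic anhydrase of red cell precursors, was at 3.96 to 4.96 in GFP+ cells and at 8.06, 11.92, 11.13 and 9.12 in GFP- cells, a fall of at least 10.6-fold. Slc4a1, the anion exchanger of red cells, was at 7.79, 8.74, 8.64 and 7.79 against 10.76, 13.30, 11.96 and 10.92, an 11.3-fold fall. Pools 2 and 3 were the high ones in both fractions for Slc4a1. All 12 endothelial genes were at background on all 8 arrays, Pecam1 and Cdh5 included, as were 11 of 13 fibroblast and mural cell genes, Col1a1 and Pdgfrb included. Among the endothelial genes 1, Eng, was called lower and 0 higher. Rgs5, which is best known from pericytes, was at 8.40, 8.90, 7.57 and 9.40 in GFP+ and at 13.14, 13.24, 13.18 and 14.50 in GFP- cells. The fall in Rgs5 was 30.9-fold (limma, Benjamini-Hochberg adjusted p = 1.5e-05) while Pdgfrb, a defining pericyte receptor, was at background. Dcn, a matrix proteoglycan of fibroblasts, fell 2.01-fold, a call lost without pool 3 or 4 and in the fit of all 16 arrays (adjusted p up to 0.078).

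Gnai2, a G protein subunit of vomeronasal-type neurons and of leukocytes, was at 7.16, 7.78, 7.49 and 7.61 in GFP+ and at 11.91, 13.17, 13.54 and 11.56 in GFP- cells, a 32.8-fold fall, with GFP- pools 2 and 3 above 1 and 4. Pde2a, a phosphodiesterase of the guanylyl cyclase neurons of the necklace system, fell 7.57-fold, whereas Gucy2d, the cyclase that defines those neurons, was at background on all 8 arrays. Anxa1, an anti-inflammatory annexin, Hp, haptoglobin, and Fn1, fibronectin, fell at least 57.2-fold, at least 42.7-fold and at least 21-fold. Of 15 S100 family genes 2 were higher, S100a5 itself and S100a3, which lay at background in both groups. The 5 lower members included S100a11, which binds annexins, at 6.92, 7.13, 6.63 and 6.24 against 13.03, 14.18, 14.04 and 12.06, a 97-fold fall, and S100a10, another annexin partner, which fell at least 1.24-fold. Among heat shock genes Hspa1a, the inducible chaperone, fell 2.27-fold with overlapping groups, at 7.99, 7.48, 7.76 and 8.45 against 9.41, 8.94, 7.91 and 10.16, and lost its call without the replicate block, with all 16 arrays in 1 fit and without pool 1, 2 or 4 (adjusted p up to 0.082). Of the 10 heat shock genes 1 was higher and 3 lower, and without the replicate block 0 were called.

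Pools differed for some programs of GFP- cells and not for others. The mean log2 level of the 21 neutrophil genes was 10.90, 12.21, 12.30 and 10.20 in GFP- pools 1 to 4, that of the cell cycle genes 6.89, 8.26, 8.04 and 6.78, and that of the erythroid genes 7.88, 10.35, 9.32 and 8.22. Pools 2 and 3 were the higher ones in all 3 lists. The neurogenic factors were at 7.31, 7.28, 7.19 and 7.30 in the same arrays and the immature neuron genes at 12.15, 12.09, 12.13 and 12.25, with no such split. Sustentacular genes were highest in pool 4, at 10.50 against 9.83 to 10.12, and so were ionocyte-like genes, at 8.73 against 7.98 to 8.14. In GFP+ cells the neurogenic factors were at 5.42 to 5.79 and the neutrophil genes at 4.92 to 5.64.

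**Figure D3:**
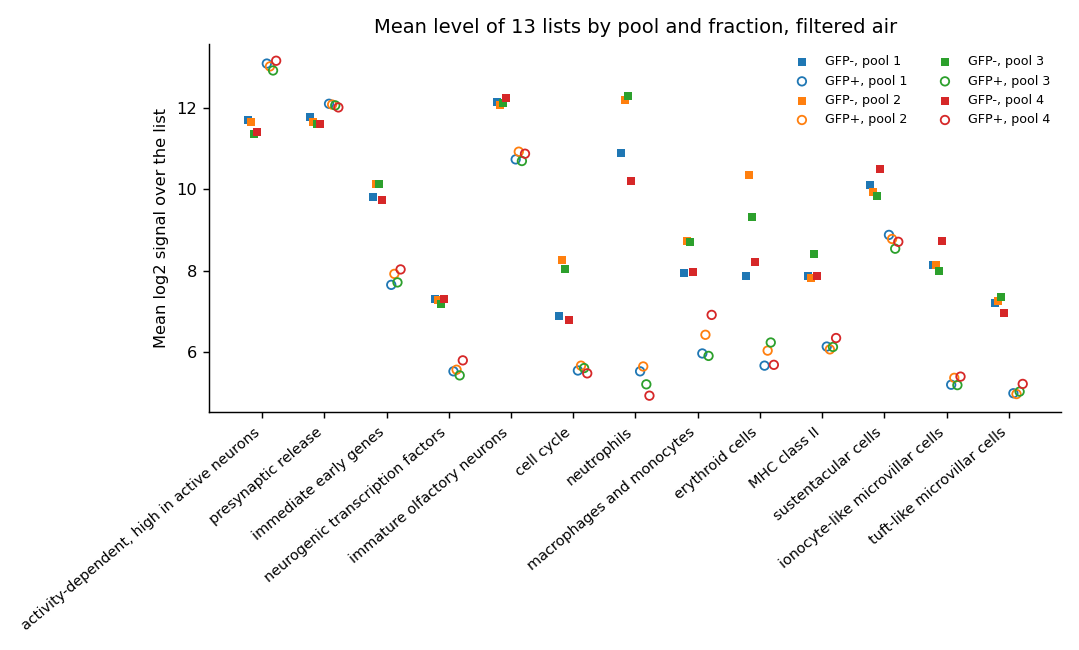
Mean log2 signal of 13 lists in each filtered-air array, with filled squares for GFP- and open circles for GFP+ cells and a colour per pool. GFP- pools 2 and 3 stand above pools 1 and 4 for neutrophil, cell cycle and erythroid genes, whereas the 4 GFP- pools lie together for neurogenic factors, at 7.19 to 7.31.

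The same contrast was made in separate pools of mice that received the odorant, with no array in common. There limma called 883 probesets higher (3.98%) and 1817 lower (8.18%). Called higher in both were 596, or 35.4% of the filtered-air and 67.5% of the odorant calls, and called lower in both were 1593, or 71.2% and 87.7%, while 1 probeset was called in opposite directions. Of the 3919 filtered-air calls, 3805 had the same sign with odorant. Of the 163 named genes that were called, 162 had the same sign and 131 were called there too. Fxyd2 differed by 4.18, Kcng1 by 1.70, Pam by -4.17, Rgs5 by -4.91, Egr2 by -6.22, Nhlh1 by -5.21 and Retnlg by -9.43 with odorant. The listed activity-dependent genes were higher in 7 of 7 cases with odorant (median 1.43), 19 of 29 immediate early genes were lower, and 11 of 16 neurogenic factors and 20 of 32 cell cycle genes were lower. Tested as an interaction, the fraction difference with odorant minus that with filtered air passed for 0 of 22206 probesets (0%) by limma, with 1460 at an unadjusted p under 0.05 and a lowest adjusted p of 0.43 (0.72 among the named genes). Ifih1, Hydin and Robo1, called with filtered air at 0.55, 1.05 and 0.61, were at 0.03, 0.28 and 0.21 with odorant, and their difference between treatments was not past the threshold.

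**Figure D4:**
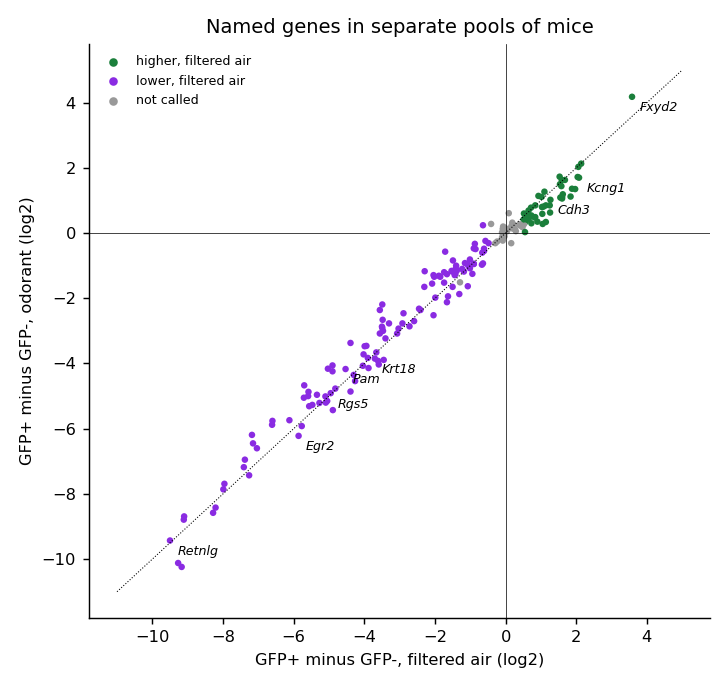
Difference between GFP+ and GFP- cells of 193 named genes in filtered-air mice (horizontal axis, log2) and in odorant mice (vertical axis, log2), which share no arrays, with the line of equality dotted. Colours mark calls with filtered air. The points run from Retnlg at -9.50 and -9.43 to Fxyd2 at 3.58 and 4.18.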

How the data were processed

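The authors made the deposited log2 probeset signals from Clariom S arrays with Affymetrix Expression Console, per the submitters' processing notes. Which version and which normalization they used is not stated in the sources used here, and the values were used as deposited. Of 28846 probesets 6640 controls were left out, and of the other 22206, 19572 carried 1 gene symbol, 0 several and 2634 none. No column was without a sample (0 of 16).

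GFP+ and GFP- arrays of the same pool were compared with limma 3.58.1 (lmFit and eBayes, R 4.3.3), with the pool as a block, two-sided, at a threshold of 0.05 after Benjamini-Hochberg adjustment over every gene probeset. The numbers pair the samples: 24 mice in pools of 3 give 8 pools for 16 arrays, and centred values of same-numbered arrays correlated at 0.113, 0.156, 0.115 and 0.118 across genes, each highest with its own number. The interaction used all 16 arrays. Folds against a group at background, or with a mean not above it, are lower bounds with the background level in place of lower values.

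The members, the 39 lists (584 of 643 symbols matched) and the rules were chosen with earlier results of these data known. Named genes were a fixed set, up to 4 called members per list by smallest p with 1 of the other direction, and the 15 largest rises and 15 largest falls with a symbol and above background. Other list members were picked as examples once their values were known. The number of arrays limits the precision. The 10 alternatives were no block, quantile normalization, array medians subtracted, dim probesets left out, an intensity trend with a robust prior, all 16 arrays in 1 fit and each pool left out. The fits were tested on simulated data. Promoter windows came from RefSeq, GRCm38.p6, and plots from matplotlib 3.10.9.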

Additional observations from a re-analysis of the deposited data

Results flagged for a closer look

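Of 386 groups of 4 arrays of named genes, 15 (3.89%) had 1 array far from the other 3, with a gap to the nearest, as a share of the group's range, above Dixon's 95% critical value, where chance gives about 1 in 20. In GFP- pool 4, Krt18 was at 11.80 against 10.87 to 10.95 in the other pools, Rgs5 at 14.50 against 13.14 to 13.24, Slc17a6 at 15.27 against 14.93 to 14.98 and Pax6 at 6.68 against 6.33 to 6.37. In GFP- pool 3, H2-Ab1, an MHC class II chain, was at 10.93 against 9.59 to 9.77 and Epha5 at 10.81 against 10.27 to 10.34. In GFP- pool 1, Epha7 was at 11.89 against 11.60 to 11.62 and Gbp2, at background, at 4.87 against 4.27 to 4.37. In GFP- pool 2, Sox2 was at 6.81 against 7.22 to 7.28. In GFP+ pool 2, Cd44 was at 4.65 against 6.94 to 7.04 and Nr4a3, at background, at 5.05 against 4.18 to 4.29. In GFP+ pool 4, Sox9 was at 6.40 against 6.01 to 6.05 and Neurod4 at 4.53 against 3.50 to 3.61, both at background. In GFP+ pool 1, Rsph1 was at 9.50 against 8.95 to 9.04 and Neurog1, at background, at 3.75 against 4.20 to 4.25.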

How the results depend on the processing

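The pools served as a block, and without the replicate block limma called 1723 higher and 2213 lower, with 3488 of the 3919 calls shared. Against 1682 higher calls, and 1276 outside the receptor families, quantile normalization gave 2589 and 2124, and subtraction of array medians 10247 and 9530. Leaving out dim probesets brought the lower calls to 1392, and to 1125 outside those families. With 1 pool left out the higher calls ranged from 800 to 1051, and from 439 to 661 outside those families. The share of higher calls was 42.9%, and 55.5%, 85.5% and 57.4% in the first 3 of these scalings and filters. The intensity trend with a robust prior gave 2156 higher and 2383 lower, and all 16 arrays in 1 fit 2265 and 2422. The interaction had 0 calls under every alternative run. Of 163 called named genes, 129 kept their call in all 10 alternatives (a gene left out as dim was not counted there), and none changed direction while called. Calls lost were 9 without the block, 6 with quantile normalization, 12 with medians subtracted, 3 with all 16 arrays, 0 of 131 with dim probesets left out, 0 with the trend, and 26, 28, 21 and 25 without pools 1 to 4. Genes at background give only a bound, whatever the p. The cause of these shifts was not tested.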

Other observations

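Gene families outside the lists were read after their values were seen, so their counts are a description, to be read beside the 7.57% higher and 10.1% lower over all gene probesets. Of 17 tubulins 4 were lower and 2 higher. Tubb2b, a tubulin of growing neurites, was at 10.50 in GFP+ and 12.75 in GFP- cells (means of 4 arrays), a 4.76-fold fall, and Tubb5, of dividing and young cells, fell 2.47-fold, whereas Tuba4a was at 13.47 against 12.53, a 1.92-fold rise (limma, Benjamini-Hochberg adjusted p = 0.011) that was lost without pool 1. Tubg2, the other tubulin called higher, was lost without pool 1, 2 or 4. Regulators of G protein signalling were lower in 7 of 21 cases and higher in 1, Rgs7, a neuronal member, which was at 10.99 against 9.68 and rose 2.48-fold. Of 90 potassium channel genes 10 were higher and 6 lower, and 44 were higher with array medians subtracted. Kcnn2, a calcium-activated channel, was at 13.09 against 12.04, a 2.07-fold rise.

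Of 29 integrins 11 were lower and 1 higher, among them Itgb2, the leukocyte beta chain (at least 7.26-fold), and Itga4 (4.02-fold). With array medians subtracted 5 integrins were lower and 7 higher. Annexins were lower in 7 of 12 cases, chemokine receptors in 7 of 16 and Toll-like receptors in 5 of 12. Genes with an interleukin receptor symbol were lower in 12 of 37 cases, a count that takes in the receptor antagonist Il1rn. The calls in Itgb3, Ccr9, Cxcr3, Ccr3, Il18r1, Tlr6 and Tlr4 were among those at background in both groups. Claudins were lower in 6 of 32 cases and keratins in 5 of 49, with median differences of 0.02 and -0.01. Of the claudin and keratin calls, Krt40, Krt14, Cldn10 and Cldn4 were at background in both groups. Cytosolic ribosomal protein genes were lower in 44 of 63 cases (median difference -0.78), and after subtraction of array medians 26 were lower and 3 higher, with a median of -0.42. Mitochondrial ribosomal proteins (2 of 76 higher, 1 lower) and the respiratory chain with ATP synthase (2 of 89 higher, 1 lower) had median differences of 0.05 and -0.08. With array medians subtracted, 37 and 23 of these were higher.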
